A study of Bos taurus with 60 samples.

Results

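These results concern the endometrium of n-3 PUFA-supplemented beef heifers in which the interferon-stimulated gene MX2 was high, and ask what the plane of nutrition after insemination changed among them. Members were chosen by the measured level of MX2 (ENSBTAG00000008471). The name MX2 comes with the selection rule, since the count table gives only the identifier. A heifer was included when log2(CPM + 1) of MX2 exceeded 5.5, where CPM is the count of a gene scaled to a library of 1000000 counted reads. Of the 32 n-3 PUFA heifers 25 lay above the limit, out of 60 heifers in the whole study. By their titles, 11 of these 25 came from the 15 PUFA_Low heifers and 14 from the 17 PUFA_High heifers.
The animals were nulliparous crossbred beef heifers whose oestrous cycles were synchronised before insemination. Both PUFA groups received a supplement based on fish oil for 30 days before insemination, and the control heifers received a palmitic acid supplement instead. For the 16 days after insemination PUFA_Low and CON_Low heifers were restricted to less than their estimated maintenance requirement, with the lipid supplement continued, while PUFA_High and CON_High heifers stayed on the high plane. Endometrium from the uterine horn on the side of the corpus luteum was then taken at slaughter, 1 library was made per heifer, and single-end reads were counted on genes.
The deposited labels disagree about the plane that n-3 PUFA heifers were fed. The title and the diet label of each sample place 15 on the low and 17 on the high plane, whereas the design text and the protocol labels give the larger group to the low plane, and the study's methods hold both versions. The title of each sample was followed, so every direction of the plane given for n-3 PUFA heifers here would turn if the 2 were exchanged.

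In ruminants the elongating conceptus secretes interferon tau, which acts on the endometrium, blocks the return of luteolytic prostaglandin pulses and so maintains the corpus luteum. MX2 encodes a dynamin-like GTPase of the antiviral response and is among the genes that interferon tau raises in the uterus, which is why its level is used as a sign of exposure to a conceptus. The plane of nutrition sets the energy and protein available to the dam during the same days. The pregnancy status of each heifer was not used here, and a high MX2 level was not treated as a diagnosis of pregnancy.

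MX2 separated the heifers widely, and these values are given as a description since they chose the members. Below the limit, the highest n-3 PUFA heifers had 3.69 on the low and 4.36 on the high plane, on the log2(CPM + 1) scale. Just above it, the lowest members had 7.20, 7.35 and 7.57, all on the low plane, and the next low-plane heifer had 9.26. Among the 14 PUFA_High members MX2 ranged from 8.32 to 10.6 with a median of 9.80. Among the 11 PUFA_Low members it ranged from 7.20 to 11.1 with a median of 9.73. The medians were thus close, but the low-plane members held both the 3 lowest and the 2 highest values of the 25, and their SD was 1.38 against 0.618 on the high plane. Limits of 5 or 6 selected the same heifers.

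**Figure D1:**
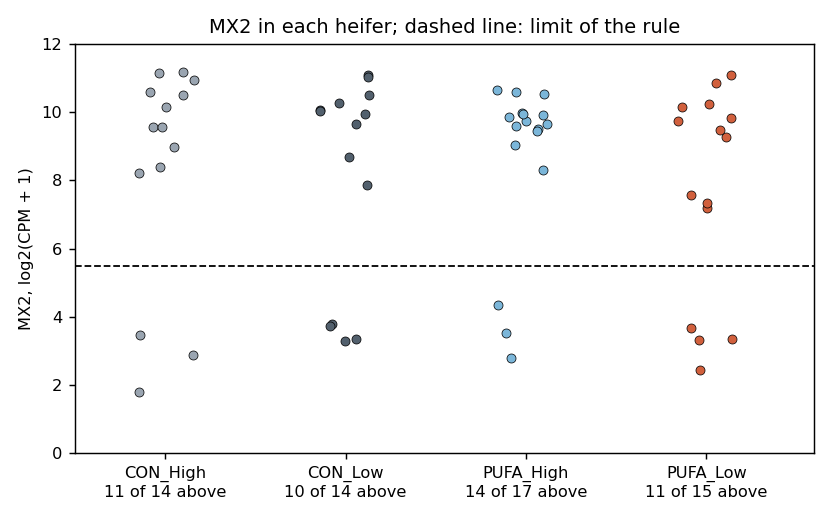
MX2 level of each of the 60 heifers, as log2(CPM + 1), by dietary group, with 1 point per heifer and the limit of 5.5 as a dashed line. No heifer lies between 4.36 and 7.20, and the 3 members nearest to the limit are all in the PUFA_Low group.

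To see whether the label of interferon-high rests on more than MX2, genes that followed MX2 were sought in the 28 control heifers. In these, 188 tested genes other than MX2 had a Pearson correlation of at least 0.8 with it. Their summed abundance was 6415 to 8418 CPM in the 4 PUFA_Low heifers below the limit and 7882 to 8691 CPM in the 3 PUFA_High heifers below it. It was 11175 to 53560 CPM (median 30579) in the 11 PUFA_Low members and 20754 to 45842 CPM (median 35559) in the 14 PUFA_High members. Every member therefore exceeded every n-3 PUFA heifer below the limit. The correlation used control heifers only, but the tested genes had passed a filter on low counts in heifers above the limit, members included. Such a filter can keep genes read only where MX2 is high, which favours larger sums in members. The separation is therefore a description and not an independent check of the label. The 3 low-plane members with the least MX2 also had the smallest sums, 12313, 11175 and 14524 CPM, and stood below all high-plane members.

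Read depth was similar in both planes. The PUFA_Low members had 10450141 to 12937130 counted reads (median 11497398) and the PUFA_High members 9635801 to 12358063 (median 11560785.5). The totals differed by 361339 on average, a difference that shuffled plane labels often reached (permutation test, two-sided here and below, p = 0.253, adjusted over 3 library measures p = 0.253).
The reads were distributed differently over the genes. In PUFA_Low members the 100 most abundant genes of each library took 22.4% to 31.7% of the counts (median 25.6%), and in PUFA_High members 18.4% to 25.2% (median 21.5%). The ranges overlapped, but 6 of the 11 low-plane heifers lay above all 14 high-plane heifers, and 10 of the 14 lay below all 11. The mean share was 26.7% ± 3.32 (SD, n = 11) against 21.5% ± 2.04 (SD, n = 14), a difference of 5.15 percentage points. Shuffled plane labels rarely gave so large a difference (permutation test, p = 0.00012, adjusted p = 0.00036). Conversely, it took 441 to 729 genes (median 635) to hold 50% of the counts in low-plane members and 618 to 976 (median 813) in high-plane members. The number of genes detected was 16561 ± 91.5 (SD, n = 11) on the low and 16665 ± 134 (SD, n = 14) on the high plane, a difference of -104 genes (permutation test, p = 0.0382, adjusted p = 0.0573).
The share was also compared within the prefixes of the library codes, whose meaning the labels do not give. It was higher on the low plane in each of the 5 prefixes that held members of both planes, by 3.36 to 9.16 percentage points. The prefix JE4 held 1 member, on the high plane, and gave no difference.
Among control heifers above the same MX2 limit the share was 21.7% ± 1.93 (SD, n = 10) on the low and 22.6% ± 3.1 (SD, n = 11) on the high plane. The ranges were 19.8% to 26.2% and 20.2% to 29.3%, so single control heifers of both planes reached the range of the PUFA_Low members. The plane difference was larger by 6.01 percentage points in the n-3 PUFA heifers. So large a difference of differences was rare when planes were permuted within supplement (permutation test, p = 0.00062). With low and high exchanged among the n-3 PUFA heifers the difference of differences was -4.28 percentage points (permutation test, p = 0.02).

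**Figure D2:**
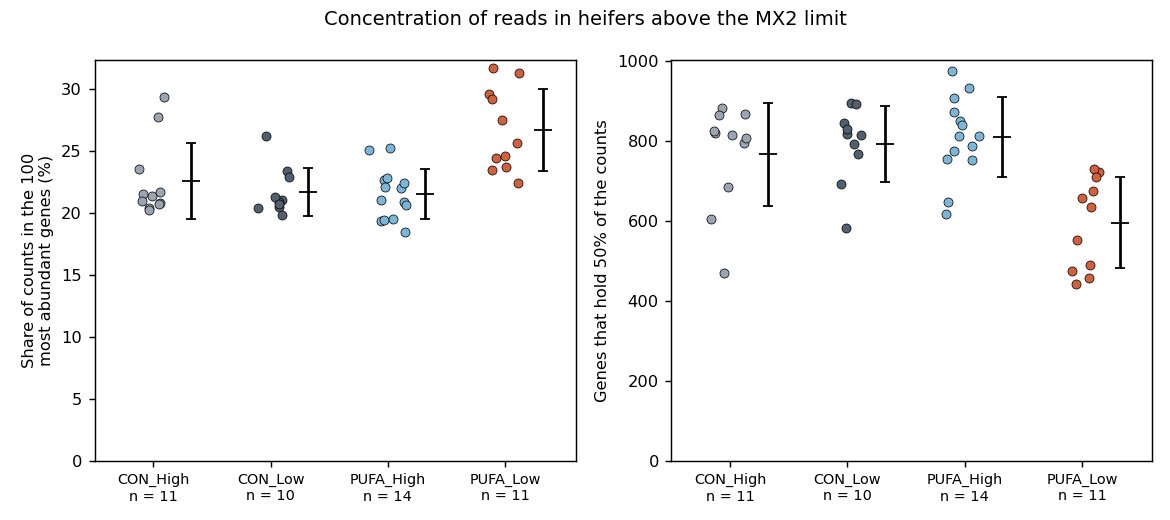
Percentage of the counts taken by the 100 most abundant genes of each library (left), and number of genes that hold 50% of the counts (right), in heifers above the MX2 limit; points are heifers and bars are means ± SD. The PUFA_Low heifers reach 31.7% and all need 729 genes or fewer, whereas the PUFA_High median is 813.

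Between the planes, 753 of 14355 genes tested were differentially expressed among the 25 heifers, a share of 5.25% (edgeR's quasi-likelihood test). Genes were called DEG when the p-value adjusted by Benjamini-Hochberg was below 0.10 and the fold change exceeded 1.5. On the low plane 328 DEG (2.28% of the genes tested) were present at higher and 425 (2.96%) at lower levels of abundance. The DEG that rose had a median log2 fold change of 0.75 in size and those that fell one of 0.70, and 58 and 36 of them, respectively, changed by more than 2-fold. The genes that fell carried fewer reads, with a median of 14.7 CPM on the high plane against 29.9 CPM for those that rose. Heifers of both planes overlapped in 752 of the 753 DEG, and across all genes tested the planes were fully apart for 0.0139%.
The direction that held more genes depended on the threshold and the scaling. At an adjusted p-value under 0.001, 125 DEG were higher and 30 lower on the low plane, and under upper-quartile scale factors there were 386 and 334. The median log2 fold change over all genes tested was -0.02 under TMM and 0.01 under upper-quartile factors. Once the fit included the share held by the 100 most abundant genes, 0 DEG were left, while 1201 genes were below 0.05 before adjustment (edgeR). That share comes from the counts that are tested and itself differs by plane, so an effect of the plane and a difference in the make-up of the libraries cannot be told apart.

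**Figure D3:**
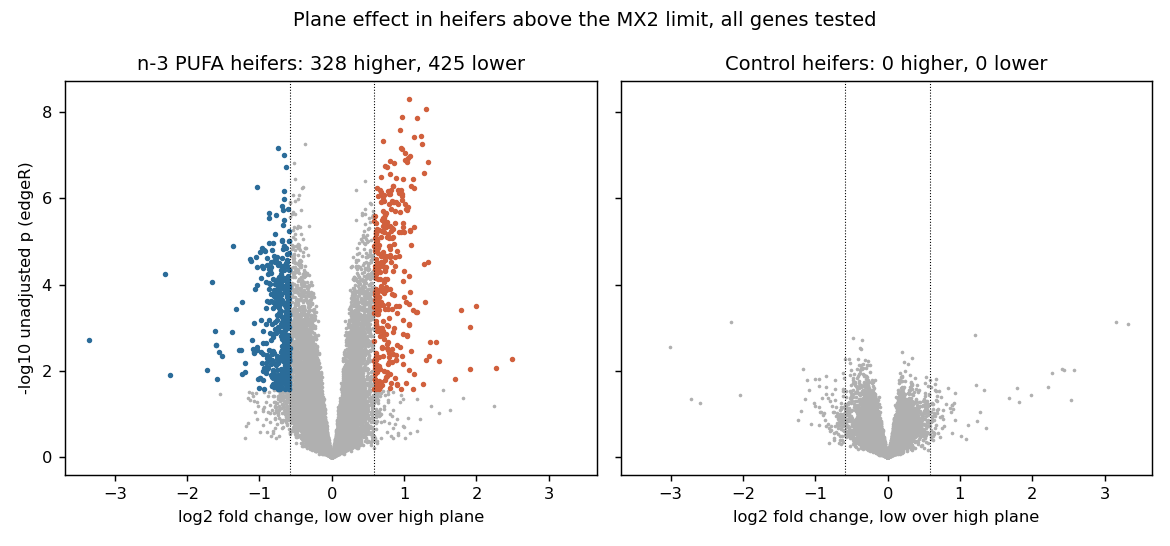
log2 fold change of low over high plane (horizontal) against −log10 of the unadjusted p-value (vertical) for the 14355 genes tested, in n-3 PUFA (left) and control heifers (right) above the MX2 limit; coloured points are DEG and dotted lines mark a fold change of 1.5. The n-3 PUFA panel holds 328 higher and 425 lower DEG, and the control panel holds none.

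The genes tested are known by Ensembl identifier only, and the reference used for names pairs no symbol with these. The functions of the DEG are therefore not described, markers of cell types could not be read, and the 2 of smallest p-value that rose and the 2 that fell are shown as examples. In whole tissue, fewer cells of a type and less RNA per cell cannot be told apart.
ENSBTAG00000046531 was present at 64.3 to 187 CPM in PUFA_Low members (median 108, scaled by TMM) and at 38.2 to 76.2 CPM in PUFA_High members (median 57.0). Of the low-plane heifers 10 of 11 exceeded all 14 high-plane heifers. The log2 fold change was 1.06 (standard error 0.148, adjusted p = 4.9e-05, edgeR). Control heifers above the limit had medians of 59.9 CPM on the low and 55.0 CPM on the high plane, within the PUFA_High range, although single control heifers reached 98.4 and 108 CPM.
ENSBTAG00000046100 was present at 186 to 587 CPM in PUFA_Low members (median 361) and at 117 to 214 CPM in PUFA_High members (median 148). Again 10 of the 11 low-plane heifers lay above all high-plane heifers, and the log2 fold change was 1.30 (standard error 0.185, adjusted p = 4.9e-05, edgeR). The control medians were 152 CPM on the low and 151 CPM on the high plane, although single control heifers reached 308 and 365 CPM.
ENSBTAG00000015334 was lower on the low plane, with 48.1 to 101 CPM (median 60.2) against 81.0 to 170 CPM (median 108) on the high plane. Here 8 of 11 low-plane heifers lay below all high-plane heifers. The log2 fold change was -0.74 (standard error 0.115, adjusted p = 7.91e-05, edgeR), and the control medians were 107 CPM on the low and 98.8 CPM on the high plane, with single heifers as low as 68.1 and 73.7 CPM.
ENSBTAG00000013317 was likewise lower on the low plane, with 16.1 to 37.7 CPM (median 22.0) against 30.4 to 48.0 CPM (median 37.1). Of the low-plane heifers 10 of 11 lay below all high-plane heifers, and the remaining heifer lay within their range. The log2 fold change was -0.67 (standard error 0.106, adjusted p = 9.04e-05, edgeR). The control medians of this gene were 35.3 CPM on the low and 37.1 CPM on the high plane, with single heifers as low as 20.6 and 25.9 CPM.
All 4 directions held in each of the 5 library code prefixes with members of both planes, which is no independent support because the genes were selected on these same heifers. With the share of the 100 most abundant genes in the fit none of the 4 remained a DEG, with adjusted p-values of 0.131 to 0.315 (edgeR). The log2 fold change of ENSBTAG00000015334 was then -0.62, near its former -0.74, whereas that of ENSBTAG00000013317 was -0.31, and those of ENSBTAG00000046531 and ENSBTAG00000046100 were 0.49 and 0.61.

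**Figure D4:**
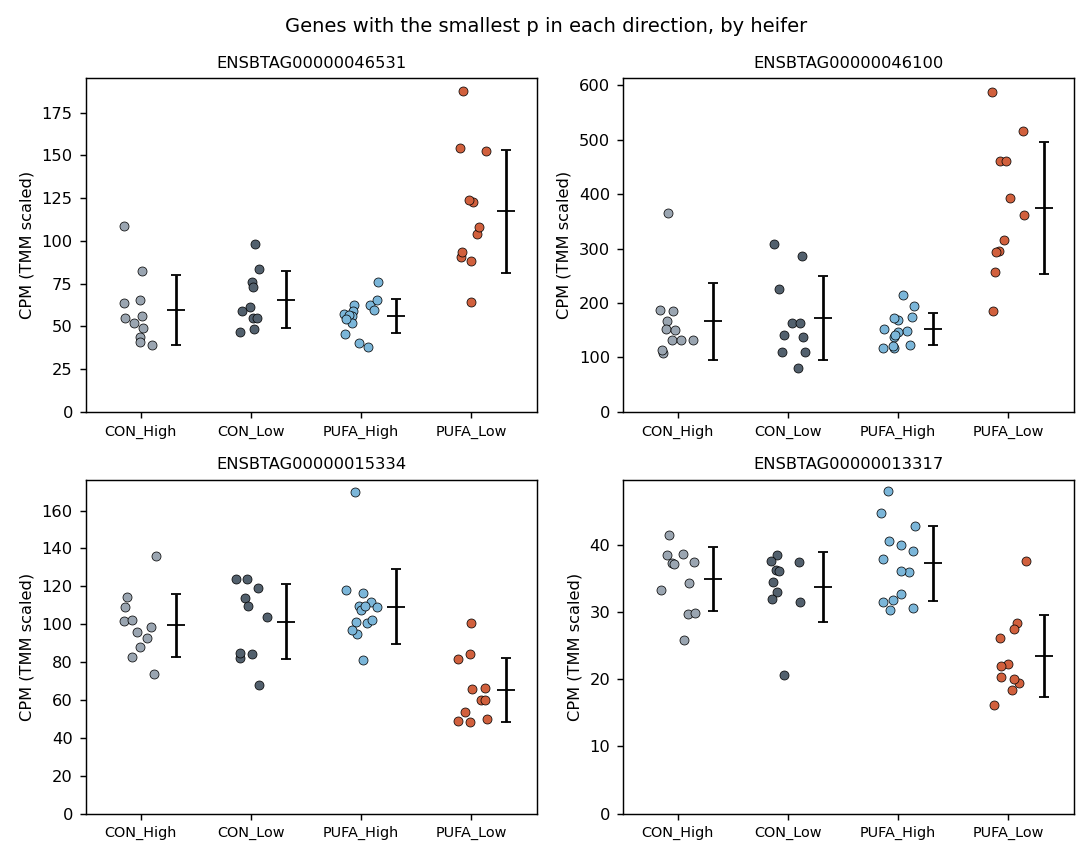
Abundance in CPM (TMM scaled) of the 4 genes in each heifer above the MX2 limit, by dietary group, with bars for the mean ± SD. ENSBTAG00000046531 and ENSBTAG00000046100 are higher and ENSBTAG00000015334 and ENSBTAG00000013317 lower in the PUFA_Low heifers, with medians of 108, 361, 60.2 and 22.0 CPM.

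Few of the genes that follow MX2 were called between the planes. Members of both planes were chosen for high MX2, which favours similar levels of these genes in both. A count below the background is therefore a description and no result about the plane. Of the 188 interferon-linked genes 0.532% rose (1 gene) and 1.06% fell (2 genes) on the low plane, where the background over all genes was 2.28% and 2.96%, and their median log2 fold change was 0.01. A wider list of 625 genes, with a correlation of at least 0.6, gave 4 higher and 10 lower and a median of 0.02. The genes that fell as MX2 rose in the control heifers, 319 with a correlation of -0.6 or lower, gave 11 higher (3.45%) and 3 lower (0.94%) with a median of 0.11. Of the 319, 221 had a positive fold change, against 6733 of the 14355 genes tested. The list is defined by MX2 too, and the 3 members with the least MX2 were on the low plane, so its direction is not independent of the membership. 
The count of interferon-linked genes was small and moved with the heifers included. With the limit at 8, chosen after the data had been seen, 3 PUFA_Low and 0 PUFA_High heifers were removed, and 22 interferon-linked genes were then higher and 0 lower on the low plane, with a median log2 fold change of 0.24. Over all genes that limit gave 468 higher and 610 lower. Since this limit removes the low-plane heifers with the least MX2, it also raises the low-plane level of genes that follow MX2. Without PUFA_Low replicate 11, the member with the most MX2, 0 were higher and 6 lower, where all genes gave 374 higher and 545 lower. Without PUFA_Low replicate 1, 2 or 13, the members with the least MX2, 2 were higher in each case and 1, 0 and 1 lower, against 705, 838 and 847 DEG over all genes. Without PUFA_High replicate 4, 3 were higher and 2 lower among 998 DEG, and without PUFA_Low replicate 6 or 7, 0 were higher and 1 lower among 631 and 566 DEG.

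Among the 100 genes with the most reads, the DEG went in 1 direction only, and their frequency was not tested against that of other genes. Of the 100 genes with the most reads in the control heifers, 40 rose on the low plane (40%) and 0 fell, where the background was again 2.28% and 2.96%. Their median log2 fold change was 0.26 in the n-3 PUFA heifers and -0.05 between the planes of the control heifers. Reads were not set against gene length, so these are the genes that took most reads and not necessarily those with most transcripts. Of the 100, 5 were also among the 188 interferon-linked genes. With the share held by the 100 most abundant genes in the fit, 0 DEG were left over all genes, so none of the 40 remained. The rise of these genes and the higher share come from the same counts and are not separate results.
When the tested genes were divided into 5 equal classes by read level, the DEG that rose were most frequent in the class with the most reads (4.77%, above 73.8 CPM) and the DEG that fell in the class with the fewest (4.46%, up to 5.05 CPM). In the middle class 1.15% rose and 2.16% fell. The median log2 fold change went from -0.06 in the class with the fewest reads to 0.03 in the class with the most, against -0.02 and 0.00114 in the control heifers. Leaving out the 100 genes with the most reads and recomputing the totals left 708 DEG, of which 701 were among the 753.

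**Figure D5:**
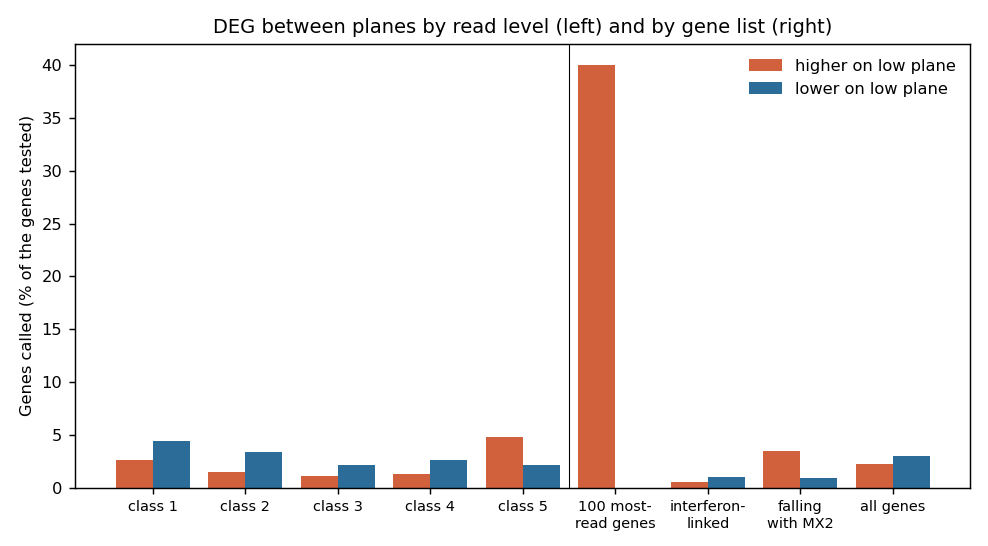
Percentage of tested genes that were higher or lower on the low plane in the 25 heifers, in 5 classes of read level from fewest to most reads (left of the line) and for 3 lists and all genes (right of it). The 100 most-read genes stand out with 40% higher and 0% lower, while 0.532% and 1.06% of the interferon-linked genes were called.

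The same comparison in control heifers above the MX2 limit gave no DEG among 14355 genes (0%; 10 heifers on the low and 11 on the high plane). The smallest adjusted p-value was 0.999 (edgeR), and DESeq2 gave 0 DEG as well. Before adjustment 355 genes were below 0.05 (edgeR), a smaller share of the 14355 than the 0.05 expected without any effect. Whether the plane effect differed between supplements was tested directly as an interaction over the 46 heifers above the limit, and it involved 986 DEG (6.87%), with 557 at a more positive and 429 at a more negative plane effect in the n-3 PUFA heifers. With the share of the 100 most abundant genes in the fit there were 0 interaction DEG (edgeR). In that fit 414 of the 14355 genes were below 0.05 before adjustment, a smaller share than the 0.05 expected without any effect. With the total count in the fit there were 614 interaction DEG (edgeR). The 4 genes shown above were selected on their plane effect in the n-3 PUFA heifers, which is 1 arm of the interaction, so their interaction values are a description and no independent support. For ENSBTAG00000046531 the plane effects differed by 0.92 on the log2 scale (standard error 0.22, adjusted p = 0.0162), and for ENSBTAG00000046100 by 1.24 (standard error 0.275, adjusted p = 0.0151). For the genes that fell the difference was -0.77 for ENSBTAG00000015334 (standard error 0.167, adjusted p = 0.0151) and -0.62 for ENSBTAG00000013317 (standard error 0.154, adjusted p = 0.018, edgeR for all 4).
At the stricter adjusted p-value of 0.001 there were 0 interaction DEG, against 155 for the plane effect, although 3676 genes were below 0.05 before adjustment (edgeR). If low and high were exchanged among n-3 PUFA heifers, as the design text of the series would have it, there were 66 interaction DEG, of which 36 were among the 986.
The spread among heifers was of similar size in the 4 groups. The median SD of log2(CPM + 1) over the genes tested was 0.295 in PUFA_Low and 0.292 in PUFA_High members, against 0.285 in CON_Low and 0.339 in CON_High heifers above the limit.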

How the data were processed

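Endometrial libraries of 60 heifers were analysed. The authors aligned the reads with TopHat2 2.0.9 to the UMD3.1 bovine genome, counted them on genes with HTSeq 0.5.4p5 and deposited raw counts without normalization in 1 table of 24616 genes. Strand and multi-mapping settings are not given in the sources used here. Groups came from the titles. Members were selected by MX2 on column totals. The rule and the gene lists were chosen with earlier results of these data known.

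The 46 heifers above the limit were fitted with edgeR 4.0.16 (R 4.3.3) using filterByExpr, TMM and a quasi-likelihood fit with 1 coefficient per dietary group. p-values were adjusted over all 14355 genes tested. Each standard error is the log2 fold change divided by the root of F. Library measures were compared with two-sided permutation tests (100000 resamples). The 146 pairs of members within a group were checked for repeated deposits, and their smallest chi-square per gene was 17.4, far above sampling noise.

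Named genes were the 12 higher and 12 lower DEG of smallest p-value with a symbol, or 2 of each by identifier where no symbol is paired. The reference of names (ARS-UCD2.0, 37063 genes) pairs 0 genes with an Ensembl identifier, so the lists by symbol (ribosomal, zinc finger, interferon, cell type and other genes) were not counted, and no coordinates or sequences are given. Alternatives were other scale factors, DESeq2 1.42.0, filters, thresholds, MX2 limits, blocks, covariates, fewer or all heifers, and exchanged planes.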

Additional observations from a re-analysis of the deposited data

Results flagged for a closer look

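The effect of the plane differed between supplements among heifers above the MX2 limit, by a test of the difference itself. The interaction involved 986 DEG of 14355 genes tested (edgeR's quasi-likelihood test, 25 n-3 PUFA and 21 control heifers). At an adjusted p-value under 0.001 there were 0, with 3676 genes below 0.05 before adjustment, and with the disputed n-3 PUFA planes exchanged there were 66, of which 36 were among the 986 (edgeR). Among the 4 genes given by identifier the difference between the plane effects, on the log2 scale, was 0.92 for ENSBTAG00000046531 and 1.24 for ENSBTAG00000046100, both higher on the low plane in n-3 PUFA heifers. It was -0.77 for ENSBTAG00000015334 and -0.62 for ENSBTAG00000013317, both lower there. The plane difference in the share held by the 100 most abundant genes was larger in n-3 PUFA heifers too, by 6.01 percentage points (permutation test with planes permuted within supplement, p = 0.00062), and with the planes exchanged the value was -4.28 (p = 0.02). The 4 genes were chosen for their plane effect in the n-3 PUFA heifers, which enters the interaction too. With the share as a covariate 0 interaction DEG were left (edgeR). Before adjustment 414 of the 14355 genes were then below 0.05, a smaller share than the 0.05 expected without any effect.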

How the results depend on the processing

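The 753 DEG between planes stayed within 1.5 times that count under other scale factors, filters, the prefix block, DESeq2 (853), an adjusted p-value under 0.05, MX2 limits of 5, 6 and 8, all heifers, only n-3 PUFA heifers, the total count as a covariate and removal of the 100 most-read genes. Without the MX2 limit there were 806 DEG, 524 of them among the 753. An adjusted p-value under 0.001 left 155 DEG and any fold change gave 3932. Leaving out each member in turn gave 566 (without PUFA_Low replicate 7) to 998 DEG (without PUFA_High replicate 4), and 403 of the 753 were called in all 25 fits. With the share of the 100 most abundant genes as a covariate, 1201 genes were below 0.05 before adjustment between planes and 414 for the interaction (edgeR). Of the genes tested, 414 is a smaller share than the 0.05 expected without any effect. That covariate left 0 DEG between planes, 0 for the interaction and 0 among the interferon-linked genes. The 4 named genes kept their direction in all 43 alternatives each and were not DEG in that 1 alone, with log2 fold changes of 0.49, 0.61, -0.62 and -0.31. Other thresholds and the MX2 limits of 5 and 6 leave the fold changes as they were, so these could not turn a direction. Exchanged planes, which would turn every direction, were not among the 43.

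The interaction, with 986 DEG, had 653 at an adjusted p-value under 0.05, 0 under 0.001, 2206 at any fold change, 614 after adding the total count and 66 with planes exchanged (36 of them among the 986). Its share of positive differences was 56.5%, and 65.2% under upper-quartile factors. The control heifers had 2 DEG between planes when no filter on low counts was applied. The interferon-linked DEG, 3 of 188 genes, were 14 of 625 at a correlation of at least 0.6 and 22 at an MX2 limit of 8, where all genes gave 1078, and ranged from 1 to 6 without each member. The difference in share ranged from 4.65 to 5.58 percentage points without each member. With planes exchanged, the difference of plane differences in share turned from 6.01 to -4.28 percentage points. This exchange for the share, the MX2 limit of 8, the settings for control heifers, and the removal of each member for the interferon-linked genes and the share were chosen after the data had been seen, as was the share as a covariate for the interferon-linked genes. For settings other than thresholds and removed heifers the cause was not tested.

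Shared replicate numbers did not pair the heifers. Deviations from group means correlated at -0.0298 on average over 48 pairs of the same number and at 0.0027 otherwise, and 0 of 43 heifers correlated best with their own number. A replicate block gave 435 DEG between planes and 0 for the interaction, where 1779 genes were below 0.05 before adjustment (edgeR). The depth limits the test to the 14355 genes that passed the filter on low counts.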

Other observations

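The 7 n-3 PUFA heifers below the MX2 limit did not enter the comparisons of members. On the low plane, the 100 most abundant genes took 22.9%, 27.8%, 22.1% and 33.0% of the counts in the 4 heifers, and on the high plane 21.4%, 23.6% and 21.6% in the 3 heifers. ENSBTAG00000046100 had 291, 402, 208 and 468 CPM on the low plane and 78.9, 131 and 145 CPM on the high plane, on column totals. ENSBTAG00000046531 had 93.5, 131, 74.0 and 167 CPM on the low plane and 52.2, 67.3 and 62.5 CPM on the high plane. For both genes every low-plane heifer lay above every high-plane heifer, with no test made of so few heifers. ENSBTAG00000015334 had 87.0, 59.4, 88.0 and 63.8 CPM on the low plane and 107, 120 and 110 CPM on the high plane, also without overlap. ENSBTAG00000013317 had 30.0, 20.2, 47.6 and 17.5 CPM on the low plane and 50.6, 37.7 and 38.4 CPM on the high plane, with 1 low-plane heifer inside the high-plane range.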
